A study of Mus musculus with 2 samples.

Results

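The genes described here serve MHC class I presentation and the immunoproteasome. They were chosen by name as a list of 10: B2m, H2-K1, H2-D1, Tap1, Tap2, Tapbp, Psmb8, Psmb9, Psmb10 and Nlrc5. All 10 had a value, out of 21335 genes named on the array. The RNA came from PDGFRα+ cells, fibroblast-like cells that include adipocyte precursors, sorted from the stromal vascular fraction, the non-adipocyte cells, of inguinal white fat. One group was Sox9 PreASKO mice and the other Sox9 floxed mice, both female, 6 weeks old and given doxycycline at postnatal day 1. Each group was 1 array, hybridised with RNA pooled from 3 mice per the series' design text. The labels name no strain, no promoter that drives recombination and no sort marker other than PDGFRα. With 1 array per group, neither an error nor a p-value can be given for any difference.

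MHC class I molecules stand on nearly all nucleated cells and show CD8 T cells short peptides cut from the cell's own proteins. The proteasome makes the peptides, the TAP transporter carries them into the endoplasmic reticulum, and tapasin holds an empty class I molecule there until a peptide is bound. Interferons raise the whole set, and the immunoproteasome is the proteasome form in which interferon-inducible catalytic subunits replace the constitutive ones.

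Control regions of the class I genes are known to combine an interferon response element, a kappa B site and an X and Y box pair on which NLRC5 acts. Upstream sequences are shown for the class I chains, and for the stretch that Tap1 and Psmb9 share. Matches in the other genes with an upstream sequence are given below without the sequence. The sequences are from RefSeq, build GRCm38.p6, each read 5′ to 3′ on the gene's strand and ending at the base before the annotated start. Capitals mark matches on either strand. The letters sought were AANNGAAA (an interferon response core) and GGGATTCCC (the kappa B site of class I heavy chain promoters). They also included TGACG (as in an X2 box) and CCAAT (as in a Y box).
B2m, chr2:122147437-122147686, plus strand: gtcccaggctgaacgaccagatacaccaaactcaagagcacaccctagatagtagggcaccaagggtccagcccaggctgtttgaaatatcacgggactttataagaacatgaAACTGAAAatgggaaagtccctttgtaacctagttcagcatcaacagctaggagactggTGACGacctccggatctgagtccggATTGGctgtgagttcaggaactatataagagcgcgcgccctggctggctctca
H2-K1, chr17:34000334-34000583, minus strand: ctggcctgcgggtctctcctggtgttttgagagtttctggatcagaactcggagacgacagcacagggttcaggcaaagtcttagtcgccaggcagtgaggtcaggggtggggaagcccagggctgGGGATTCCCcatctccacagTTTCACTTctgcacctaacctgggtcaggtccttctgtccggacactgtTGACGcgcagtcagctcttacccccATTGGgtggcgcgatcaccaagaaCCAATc
H2-D1, chr17:35262844-35263093, plus strand: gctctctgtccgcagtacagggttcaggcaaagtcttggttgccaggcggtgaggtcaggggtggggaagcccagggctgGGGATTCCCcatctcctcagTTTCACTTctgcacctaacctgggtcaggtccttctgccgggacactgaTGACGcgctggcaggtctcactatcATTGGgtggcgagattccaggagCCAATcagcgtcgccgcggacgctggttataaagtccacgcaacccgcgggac
Tap1 and Psmb9, chr17:34187331-34187555, plus strand, the whole stretch between their starts: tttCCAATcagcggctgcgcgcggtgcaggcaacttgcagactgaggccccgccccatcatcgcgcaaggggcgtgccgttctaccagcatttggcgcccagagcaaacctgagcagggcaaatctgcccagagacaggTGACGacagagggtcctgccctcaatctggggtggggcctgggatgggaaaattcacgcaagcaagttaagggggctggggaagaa

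No marked match overlapped another. Of 32851 promoters in the same table, 21.3% held AANNGAAA in their 250 upstream bases, 0.301% held GGGATTCCC, 17.8% held TGACG and 33.8% held CCAAT. B2m held the interferon response core, TGACG and CCAAT but not GGGATTCCC. Other forms of kappa B site were not searched for, so a sequence without GGGATTCCC cannot be said to lack such a site. H2-K1 and H2-D1 held all 4 motifs in the same order, and GGGATTCCC stood in 99 promoters of the table. Of the 4 motifs the stretch between Tap1 and Psmb9 held TGACG and CCAAT only. Of the genes not printed, Tapbp held CCAAT alone, and Psmb8 and Psmb10 held none of the 4 motifs in their 250 upstream bases. The H2-K1 and H2-D1 sequences were identical at 177 of 203 aligned positions (87.2%), so these heavy chain genes are near copies in their control regions. The starts of Tap1 and Psmb9 have 225 bases between them, and the genes run in opposite directions. The table held 8 of the 10 genes; Tap2 and Nlrc5 were not matched. A match describes the letters only, and H2-K1 has more than 1 annotated start, of which the most downstream is shown.

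The values are RMA summaries on the log2 scale, and differences are PreASKO minus floxed. The series names 1.5-fold as its limit, which is 0.585 on this scale. As a background mark served 4.64, the level that 95% of 1015 olfactory receptor genes, taken as silent in these cells, did not exceed on the floxed array; the PreASKO array gave 4.48. The targeted gene Sox9 stood at 4.97 in PreASKO and 5.25 in floxed cells, a difference of -0.27, short of the limit. Pdgfra, the sorting marker, stood at 9.55 in PreASKO and 9.86 in floxed cells. The 9 measured stromal markers, among them the matrix genes Dcn, Lum and Col1a2, lay at or above 8.48 in PreASKO and 8.66 in floxed cells. Macrophage transcripts were also present on both arrays, Lyz2 at 11.46 in PreASKO and 11.04 in floxed cells. The values below are therefore those of the sorted mixture, in which more cells of a type and more RNA per cell cannot be told apart.

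All 10 class I and immunoproteasome genes were detected above background on both arrays, and none differed by 1.5-fold. Each stood above the background mark on both arrays. Of the 10, 8 were higher and 2 lower in PreASKO, with differences from -0.10 to 0.29 and a median of 0.06. The 10 genes lie on 9 probe sets, because H2-K1 and H2-D1, both counted as higher, share a probe set. Over all genes 4.04% passed 1.5-fold in either direction, 1.57% upward and 2.47% downward, so that 0 of 10 is near this background. Over all genes 47.3% were higher by any amount, with a median difference of 0.00. Among the 8751 genes whose mean level lay within the range of the list, 2.07% passed 1.5-fold, 1.23% upward and 0.834% downward, and 54.4% were higher, with a median difference of 0.02. In that range 17.5% of genes had a larger difference, in either direction, than the largest in the list. After quantile normalization or loess correction 6 of the 10 were higher, because Tapbp and Psmb8, which lay within 0.02 of 0, turned sign. The Tapbp value is that of a probe set that also names the gene Rps3a1, and the one naming Tapbp alone differed by 0.08.

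**Figure D1:**
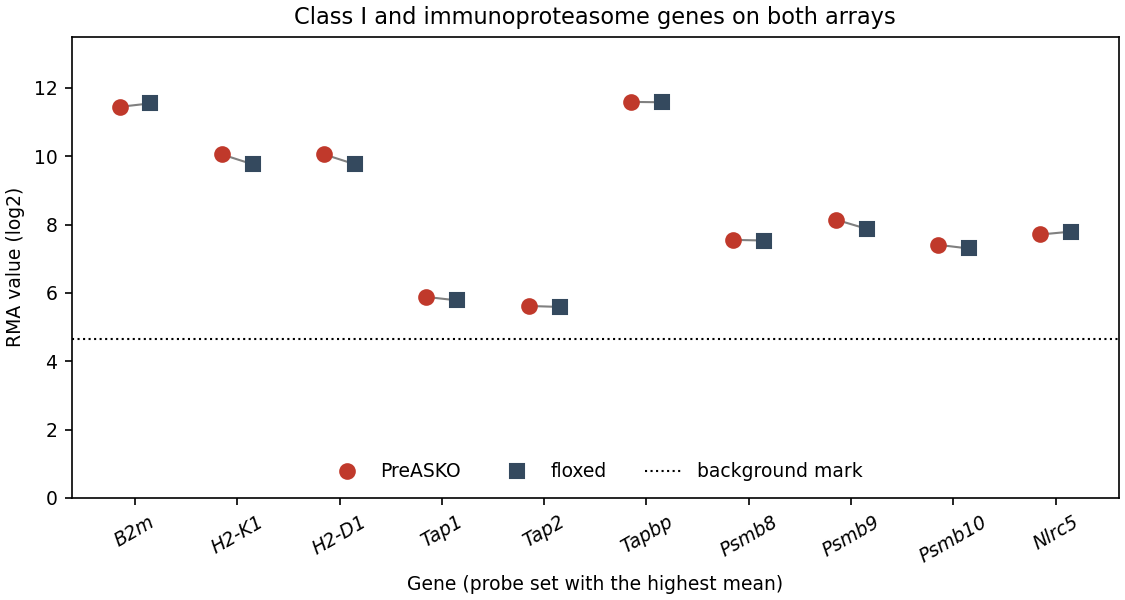
RMA value (log2, vertical axis) of the 10 genes (horizontal axis) in PreASKO (red circles) and floxed cells (dark squares), 1 array each, without error bars. The dotted line is the background mark of 4.64. Each pair of points lies within 0.29, and H2-K1 and H2-D1 are the same probe set drawn under both names. Tapbp is drawn at a probe set that also names Rps3a1.

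The class I chains differed in sign, and none passed 1.5-fold. B2m encodes beta-2 microglobulin, the small chain that every class I molecule needs to reach the surface. It stood at 11.45 in PreASKO and 11.55 in floxed cells, a difference of -0.10. Of the 1000 genes nearest to it in mean level, 80.8% had a higher difference. H2-K1 and H2-D1 encode the classical heavy chains that hold the peptide. The annotation names both genes, and the locus LOC547349, on each of the 2 probe sets that carry either name. The levels therefore belong to the pair and not to one gene, and 10 genes rest on 9 probe sets. The brighter probe set stood at 10.06 in PreASKO and 9.77 in floxed cells, a difference of 0.29 or 1.22-fold. Of its 1000 nearest genes in level, 7.0% had a higher difference. The other probe set stood at 9.52 in PreASKO and 9.45 in floxed cells, a difference of 0.07. The larger difference of the heavy chain pair was thus seen on one of its probe sets and not on the other.

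The genes of peptide transport and loading were near level. Tap1 and Tap2 together encode the TAP transporter. Tap1 stood at 5.88 in PreASKO and 5.78 in floxed cells, a difference of 0.10. Tap2 stood at 5.62 in PreASKO and 5.59 in floxed cells, a difference of 0.03. They lay between 0.95 and 1.24 above the mark on the log2 scale, where RMA understates differences. Tapbp encodes tapasin, which tethers class I molecules to TAP. Its highest probe set stood at 11.59 in PreASKO and 11.58 in floxed cells, but it also names the ribosomal protein gene Rps3a1, as does another at 11.18 in PreASKO and 11.19 in floxed cells. The probe set that names Tapbp alone stood at 7.55 in PreASKO and 7.47 in floxed cells, a difference of 0.08, and it is the one that can be read as tapasin.

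The immunoproteasome subunits were not all alike. Psmb8, the chymotrypsin-like subunit beta 5i, stood at 7.55 in PreASKO and 7.54 in floxed cells, a difference of 0.02. Psmb9, the subunit beta 1i, stood at 8.15 in PreASKO and 7.88 in floxed cells, a difference of 0.27 or 1.2-fold. Of its 1000 nearest genes in level, 9.10% had a higher difference. Psmb10, the subunit beta 2i, stood at 7.41 in PreASKO and 7.30 in floxed cells, a difference of 0.11. Psmb9 and Tap1, which share the upstream stretch printed above, differed by 0.27 and 0.10.

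Each immunoproteasome subunit takes the place of a constitutive one in the core. The constitutive genes Psmb5, Psmb6 and Psmb7 were higher in PreASKO by 0.31, 0.21 and 0.07. Set against its constitutive counterpart, the difference of Psmb8 was lower than that of Psmb5 by 0.29 (-0.29). The difference of Psmb9 exceeded that of Psmb6 by 0.06, and the difference of Psmb10 exceeded that of Psmb7 by 0.04. No immunoproteasome gene thus exceeded its counterpart by more than 0.06 in this difference.

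Nlrc5 encodes the transactivator of class I genes, a nuclear NOD-like receptor protein. It had 19 probe sets, each naming Nlrc5 alone. The brightest stood at 7.71 in PreASKO and 7.80 in floxed cells, a difference of -0.08. Of the 19, 10 lay above the background mark on both arrays, 1 on 1 array and 8 on neither. Among the 10, 4 were higher and 5 lower in PreASKO, from -0.35 to 0.45, with a median of -0.03. The widest spread stood at similar levels: one probe set was at 6.11 in PreASKO and 5.66 in floxed cells, another at 5.33 in PreASKO and 5.68 in floxed cells. The mean over all 19 gave a difference of 0.01. The probe sets of this one gene thus spread more widely than the 10 genes did.

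**Figure D2:**
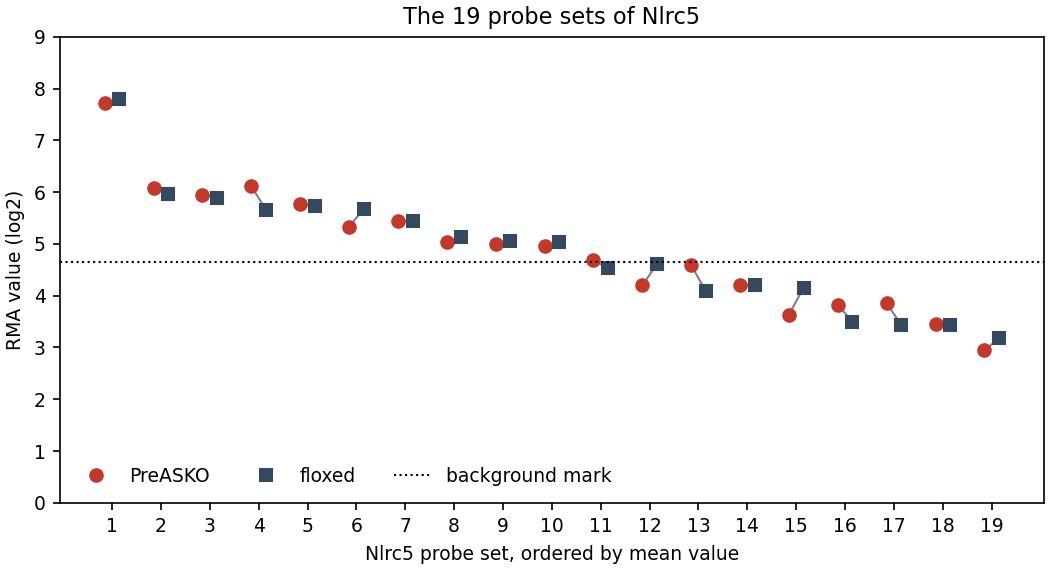
RMA value (log2, vertical axis) of the 19 Nlrc5 probe sets, ordered by mean value (horizontal axis), in PreASKO (red circles) and floxed cells (dark squares). The dotted line is the background mark of 4.64. Only the brightest exceeds 7 on both arrays, and pairs lie in both directions.

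Other class I and class I-like genes differed in both directions. Of 26 listed, 22 had a value, on 18 probe sets, and 14 of them lay above the background mark on at least 1 array. Of these 14, 4 were higher and 10 lower in PreASKO, with a median of -0.07, and none passed 1.5-fold. These 14 genes share 10 probe sets, 3 higher and 7 lower. H2-K2, a class I locus outside the list that was picked after its value was seen, stood at 6.48 in PreASKO and 5.99 in floxed cells, a difference of 0.48. Hfe, a class I-like protein of iron regulation, stood at 6.22 in PreASKO and 5.96 in floxed cells. H2-T24 differed by 0.22, and H2-Q6 and H2-Q8, which share a probe set, by 0.14. The probe set shared by H2-T9, H2-T10 and H2-T22 differed by -0.23, while a dimmer one that names H2-T10 alone differed by 0.12. H2-M2 was below the mark in PreASKO and at least 1.18-fold lower there, computed against the mark. H2-M5 and H2-M1 passed 1.5-fold, upward and downward, but lay below the mark on both arrays, so that no fold is given. H2-T23, the heavy chain of the class I-like Qa-1 molecule that NK cell receptors read, stood at 7.10 in PreASKO and 7.22 in floxed cells on a probe set that also names H2-T-ps.

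Helpers of peptide trimming and loading were lower in PreASKO in 9 of 13 measured genes and higher in 3, with a median of -0.13 and none past 1.5-fold. Calr and Canx, the lectin chaperones calreticulin and calnexin, differed by -0.16 and -0.21, and Pdia3, the disulfide isomerase partner of tapasin, by -0.14. The lowest were the glucosidase subunit gene Ganab (-0.33), the aminopeptidase gene Npepps (-0.24) and the peptidase gene Thop1 (-0.21). The highest were the peptidase gene Tpp2 (0.19), the tapasin-related Tapbpl (0.15) and Bcap31 (0.12). Erap1, the trimming aminopeptidase of the endoplasmic reticulum, was at 6.54 in PreASKO and 6.54 in floxed cells.

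Proteasome genes outside the immunoproteasome were mostly higher. Of 16 other core subunit and assembly genes 14 were higher, with a median of 0.12, led by the core subunit genes Psmb3 (0.38) and Psmb2 (0.32) and the assembly factor gene Psmg4 (0.28). The lowest were Pomp (-0.09), a maturation factor, and Psmg3 (-0.05). A dimmer Psmb3 probe set differed by 0.71, so that its probe sets lie on either side of the limit. All 4 activator genes were higher, with a median of 0.16: Psme3 by 0.35, Psme2 by 0.19, Psme1 by 0.13 and Psme4 by 0.11. Psme1 and Psme2 encode the interferon-inducible PA28 cap. Of 17 measured genes of the regulatory particle 12 were higher, with a median of 0.06, from Psmd11 (-0.15) and Psmd2 (-0.14) to Psmd6 (0.27), Psmc5 (0.21) and Psmc1 (0.21). The dimmer probe sets of Psmd2 and Psmc1 differed by 0.04 and 0.08, that of Psmd2 opposite in sign to its brighter probe set. None of these proteasome genes passed 1.5-fold on the probe set taken for the gene.

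The regulators of class I transcription and interferon signalling went in both directions. Of 25 measured, 18 were higher and 7 lower in PreASKO, with a median of 0.07 and none past 1.5-fold. Irf1, the interferon-induced activator of class I promoters, stood at 9.79 in PreASKO and 9.57 in floxed cells. The subunits of the RFX complex that binds the X box differed in sign, Rfx5 by 0.39 and Rfxap by -0.40, with Rfxank at 0.09. Nfya, Nfyb and Nfyc, the subunits of the factor that binds the Y box, differed by -0.22, -0.23 and -0.22. The kinase gene Tyk2 (0.48) and Irf8 (0.24) were the other high differences, Socs1 (-0.27) and Atf1 (-0.24) the other low ones. Ifng was below the background mark on both arrays.

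Interferon-inducible GTPase and chemokine genes also differed in both directions. Of 16 genes 6 were higher and 10 lower in PreASKO (4 and 7 of their 11 probe sets), with a median of -0.05 and none past 1.5-fold. Cxcl10, an interferon-inducible chemokine, was at 10.28 in PreASKO and 10.23 in floxed cells. The most positive was the probe set shared by Tgtp1 and Tgtp2 (0.24), ahead of that of Irgm2 and Igtp (0.09). The most negative was a probe set that names Gbp4, Gbp6, Gbp8, Gbp9 and further family members (-0.23). Dimmer probe sets that name Gbp9 alone and Gbp8 alone differed by 0.09 and 0.03, and one naming Gbp4 alone lay below the background mark on both arrays.

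**Figure D3:**
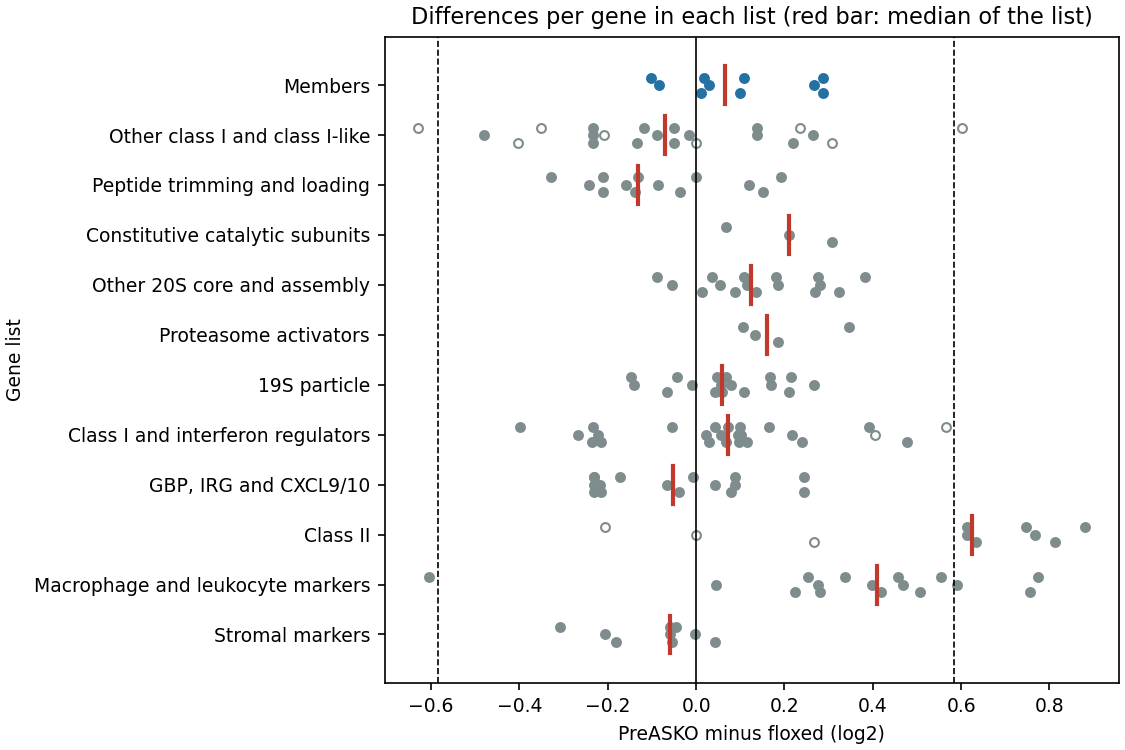
Difference PreASKO minus floxed (log2, horizontal axis) of each gene in 12 lists (vertical axis), with the median of each list as a red bar and the 1.5-fold limit as dashed lines. Blue points are the 10 class I and immunoproteasome genes, grey points the other lists, and open points genes below the background mark on both arrays. Among the blue points H2-K1 and H2-D1 are the same probe set, and Tapbp is at a probe set that also names Rps3a1. The class II and macrophage medians of 0.62 and 0.41 lie apart from the median of 0.06 of the 10 genes.

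The class II genes, which present peptides of ingested proteins and are typical of macrophages, dendritic cells and B cells, had larger differences than the class I genes. Of 10 class II genes 7 lay above the background mark, on 6 probe sets, and all 7 were higher in PreASKO by 1.53-fold to 1.84-fold. The lowest of them, at 0.61, exceeded the highest of the 10 class I and immunoproteasome genes by 0.33 and H2-K2 by 0.13. No test of these gaps was possible with 1 array per group. In the gene order of chromosome 17 Psmb9, Tap1, Psmb8 and Tap2 stand next to each other between class II genes. On one side H2-DMa differed by 0.88 and H2-DMb1 by 0.61. On the other side, after H2-Ob, which lay below the mark on both arrays, H2-Ab1 differed by 0.81, H2-Aa by 0.77 and H2-Eb1 by 0.63. The 4 genes between them differed by 0.27, 0.10, 0.02 and 0.03.

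**Figure D4:**
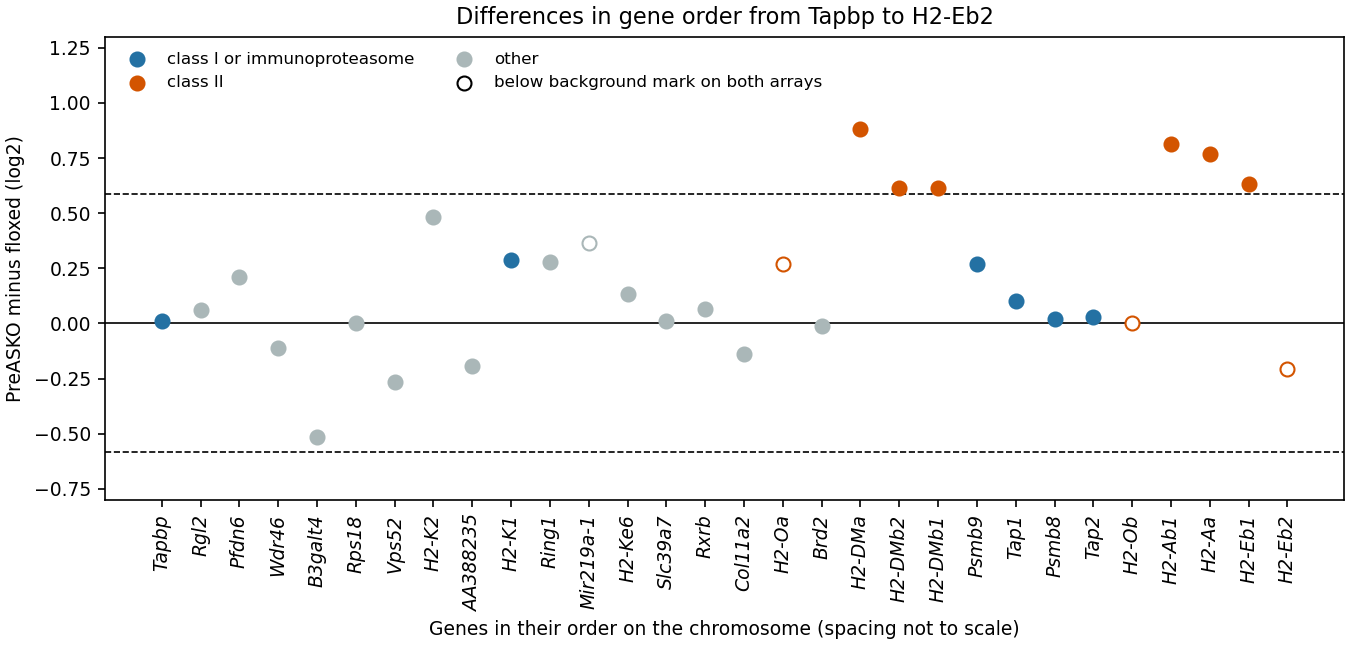
Difference PreASKO minus floxed (log2, vertical axis) of genes with a value, in their order on mouse chromosome 17 from Tapbp to H2-Eb2 (horizontal axis, spacing not to scale). Class I and immunoproteasome genes are blue, class II genes orange, others grey, and open points lay below the background mark on both arrays. Tapbp is drawn at a probe set that also names Rps3a1, and H2-K1 at the probe set it shares with H2-D1. H2-DMb1 and H2-DMb2 are the same probe set. The block of Psmb9, Tap1, Psmb8 and Tap2 lies between 0.02 and 0.27, with class II genes above the dashed 1.5-fold limit on either side.

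Most macrophage and pan-leukocyte markers were higher in PreASKO, by less than 1.5-fold in most cases. Of 16 markers 15 were higher, 3 past 1.5-fold, the median was 0.41, and the fractalkine receptor gene Cx3cr1 was the one that was lower (-0.60), past the limit. The brightest Itgam probe set also names the ribosomal protein gene Rpl35; on probe sets naming 1 gene the count and the median were the same. Ptprc, the pan-leukocyte antigen CD45, stood at 7.08 in PreASKO and 6.61 in floxed cells. Over probe sets naming 1 gene the linear values of the 16 markers summed to 11346 in PreASKO and 8363 in floxed cells, a ratio of 1.36 in which bright probe sets weigh most. Stromal markers had a median of -0.06. Of 12 T and NK cell markers 8, among them Cd3d and Cd4, lay below the mark on both arrays. The 4 others were higher, Cd3e by 0.88, Cd8a by 0.13 and Cd3g by 0.12. Cd8b1 was below the mark in floxed cells and higher by at least 0.08, computed against the mark. Over all 12, 7 were higher and 5 lower, with a median of 0.10. Of 7 dendritic cell markers 4, Itgax, Flt3, Xcr1 and Clec9a, lay below the mark on both arrays. The 3 others were higher, Cd209a by 1.01, Zbtb46 by 0.24 and Ccr7 by 0.22. Over all 7, 3 were higher and 4 lower, with a median of -0.08. The medians of the other marker lists were -0.15 (endothelial, 6 genes), -0.37 (mural, 6), -0.09 (B cell, 3), -0.10 (adipocyte, 4) and 0.09 (epithelial, 5). Of these, 1 endothelial, 2 B cell, 3 adipocyte and 4 epithelial markers lay below the mark on both arrays, and the 1 epithelial marker above it, Krt8, differed by 0.38. RMA values have no true zero, so no marker can be called absent. The part of these cells in the values of the class I and immunoproteasome genes was not tested.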

How the data were processed

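Per the submitters' processing notes RMA was used, and the authors deposited 1 value per probe set and array. RMA subtracts background, brings the arrays to a common distribution and combines the probes of a set. Its version and any filter are not given in the sources used here. That the deposited values are log2 was taken from their range of 1.23 to 13.8. Of 35556 probe sets the supplied platform annotation, which can be old, gave 1 gene to 21789, several to 1621 and none to 12146. Each gene was taken at the probe set with the highest mean over both arrays, including probe sets that name several genes, which gave 21335 genes. Levels of different probe sets depend on their probes and were not ranked against each other. No test was made, since each group had 1 array: the number of arrays limits the precision. The arrays had medians of 4.71 (PreASKO) and 4.73 (floxed).

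Genes named were the 10 of the list, Sox9, Pdgfra and Ptprc, then per pathway list up to 3 differences in each direction above the background mark and any past 1.5-fold. H2-K2, Calr, Canx, Pdia3, Erap1, H2-T23, Irf1, Rfxank, the Nfy genes, Ifng, Cxcl10, the marker genes and the dimmer Psmb3 probe set were picked with their values in view. The 10 genes, all lists and the alternatives were chosen with earlier results of these data known. No gene was sought for likeness to another, since 2 arrays give 1 difference per gene. Listed genes with no value here were not analysed. The alternatives were the mean of all probe sets of a gene, probe sets naming 1 gene only, quantile normalization, loess on the mean level (span 0.3), centring, values raised to the background mark, genes above that mark, and a 2-fold limit. The steps were tested on simulated data. Python 3.11.15, pandas 2.3.3, numpy 2.4.6, statsmodels 0.14.6, Biopython 1.88 and matplotlib 3.10.9 were used.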

Additional observations from a re-analysis of the deposited data

How the results depend on the processing

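No class I or immunoproteasome gene passed the limit under any of the 8 alternatives, and their median difference ran from 0.0446 (loess) to 0.0647 (mean over probe sets). Some alternatives could not change this outcome. Centring subtracted a median of 0, and a 2-fold limit is only stricter. Raising values to the mark and keeping genes above it left the class I and immunoproteasome genes as they were, since all lay above it. Single genes stayed between -0.14 and 0.29. Tapbp, at the probe set that also names Rps3a1, and Psmb8 turned sign after quantile normalization (-0.02 and -0.00) and loess correction (-0.02 and -0.00). With the mean over probe sets H2-K1 and H2-D1 were at 0.18. With probe sets naming 1 gene only, H2-K1 and H2-D1 had no value and 6 of 8 genes were higher. In the other class I list the counts past 1.5-fold, 1 in each direction, became 0 with values raised to the background mark, with genes above it, and at 2-fold. The count of regulators past the limit became 1 after quantile normalization and loess correction. Before these corrections the regulator nearest the limit was Ifng (0.57), which lay below the background mark on both arrays. The 7 class II genes became 0 at 2-fold. A difference or median is called moved beyond the median absolute difference over all genes, 0.159. A count is called moved where it became 0, left 0 or changed by more than 1.5-fold. RMA understates differences near background, which limits Tap1, Tap2 and most Nlrc5 probe sets. No paired analysis was possible because there is 1 array per group, which also leaves no replicate to omit.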

Other observations

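Beyond the 10 genes and the class II list, 79 genes between Tapbp and H2-D1 in the gene order of chromosome 17 had a value, and 61 of them lay above the background mark on at least 1 array. Of the 61, 37 were higher and 24 lower in PreASKO, with a median difference of 0.06, and 1 passed 1.5-fold in each direction. With values below the mark raised to it, 0 were 1.5-fold higher and 1 was lower. These genes were examined after the results were seen. D17H6S56E-5 stood at 6.57 in PreASKO and 7.28 in floxed cells, a difference of -0.71. Notch4, a Notch receptor gene of endothelial cells, was at 4.93 in PreASKO and below the background mark in floxed cells, so that it was at least 1.22-fold higher in PreASKO, which is short of the limit. Whether the probes of H2-K2 share signal with H2-K1 was not tested. B3galt4 was at 4.79 in floxed cells and below the mark in PreASKO.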
